A study of Rattus norvegicus with 7 samples.

Results

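The miRNAs miR-148b-3p (rno-miR-148b-3p in the files) and miR-152-3p (rno-miR-152-3p) were followed in cells labelled as rat primary skeletal muscle cells. They were cultured for differentiation with or without interleukin-6 (IL-6). The pair makes up 2 of the 719 miRNAs on the array and was taken by name from the probe annotation. The pair was selected on its shared seed and on the measured signal of miR-152-3p, which was higher with IL-6 in these same arrays. The IL-6 comparison of either miRNA is therefore a description here, with no test and no p-value.

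The cells (RSkMC) came from limb muscle of newborn rats and were bought frozen at an early passage. All 7 samples were collected on day 11 of differentiation in horse serum medium. The titles and the series design put 3 in an untreated group and 4 in a group given 1 ng/ml IL-6, although the protocol field lists IL-6 for both groups. The labels do not say whether replicates are separate cultures, so the spread between samples may be technical.

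miRNAs guide a silencing complex to messenger RNAs, mainly through bases 2 to 8 from the 5′ end, the seed. miR-148b-3p, miR-152-3p and miR-148a-3p, which was not analysed here, form a seed family known in human and mouse cells for repressing Dnmt1, the enzyme that copies DNA methylation onto newly made strands. In human cholangiocarcinoma cells IL-6 is known to lower miR-152 and raise DNMT1. In human and mouse, the precursors lie in introns of COPZ1 and COPZ2, which encode paired zeta subunits of the coatomer of transport vesicles.

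The mature sequences are shown because the pair differs so little that the array must tell it apart by a few bases. They are from RefSeq (GRCr8), 5′ to 3′, with the seed in capitals.
miR-148b-3p: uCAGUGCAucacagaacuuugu
miR-152-3p: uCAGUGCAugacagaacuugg
miR-148b-3p is 22 bases long and lies at chr7:136299930-136299951 on the plus strand. miR-152-3p is 21 bases long and lies at chr10:82329435-82329455 on the plus strand. Counted from the 5′ end, with miR-148b-3p first, the substitutions are C10G and U20G, so 19 of the 21 compared positions are the same. Of the 651 array miRNAs with a RefSeq mature sequence, only these 2 have this seed. In the same annotation, Mir148b (chr7:136299870-136299966) lies within the span of Copz1, and Mir152 (chr10:82329383-82329467) lies within that of Copz2. Mir152 begins 495 bases from the start of the Copz2 span, and Mir148b begins 12174 bases into that of Copz1.

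Each miRNA had 2 probes on the array, each printed as 10 spots. The probe sequences of the deposited files are shown because they set what each measurement can distinguish. Capitals mark the bases that pair with positions 10 and 20, where the miRNAs differ.
miR-148b-3p, 20-base probe: acAaagttctgtGatgcact
miR-148b-3p, 19-base probe: acAaagttctgtGatgcac
miR-152-3p, 16-base probe: cCaagttctgtCatgc
miR-152-3p, 15-base probe: cCaagttctgtCatg
The probes of miR-148b-3p pair with positions 3 to 22 and 4 to 22, and those of miR-152-3p with positions 6 to 21 and 7 to 21. All 4 probes cover both differing positions. miR-152-3p fails to match 3 positions of either miR-148b-3p probe, its missing base 22 included, and miR-148b-3p fails to match 2 positions of either miR-152-3p probe. Binding of one miRNA to the other's probes was not tested.

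Both miRNAs were detected on all 7 arrays, and every spot used of all 4 probes was well above background. The number of spots left after outlier removal was 7 to 10 per probe and array. The spots of a probe varied by 2.13% to 10.3% of their mean for the brighter miR-152-3p probe and by 6.59% to 15.5% for the brighter miR-148b-3p probe. The opposite arms of both hairpins were detected on no array: the highest scaled signal of the 6 probes of miR-148b-5p and miR-152-5p was 5.62 intensity units, below the 15.7 at which low signals were set before log2. The measured signal of each hairpin was thus that of its 3p arm.

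All 7 arrays had the same recorded scan date, and whether they shared a slide was not checked. The 3 controls lay in 1 slide row and the 4 IL-6 arrays in the other, so the effects of row and of IL-6 cannot be told apart. The arrays detected 174 to 207 miRNAs each. Signals were scaled to a 75th percentile, taken over probes that every array measured well above background, with factors from 0.852 for control replicate 1 to 1.25 for IL-6 replicate 2. None of the 7 skeletal muscle miRNAs on the list, miR-1-3p, miR-133a-3p and miR-206-3p among them, was detected on any array; they had summed scaled signals of 4.99 to 9.62 in the controls and 3.97 to 11.99 with IL-6. All 7 arrays detected the 5 miRNAs listed for fibroblasts and smooth muscle, whose summed scaled signal was 23367 to 25106 in the controls and 20799 to 24089 with IL-6. Markers of endothelium, epithelium and nerve were detected on no array, and of the 4 blood markers only miR-223-3p was detected, on 1 array. The name skeletal muscle cells is thus that of the labels, and the listed muscle miRNAs do not bear it out. The part of other cells in the values below was not tested. In bulk RNA, fewer cells of a type and less RNA per cell cannot be told apart.

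miR-152-3p was higher with IL-6. On its 16-base probe the scaled signal was 773 intensity units in control replicate 1, 795 in control replicate 2 and 823 in control replicate 3. With IL-6 it was 876 in replicate 1, 902 in replicate 2, 932 in replicate 3 and 925 in replicate 4. The lowest IL-6 array lay above the highest control array. On the log2 scale the mean was 9.64 ± 0.04 (SD, n = 3) in control and 9.83 ± 0.04 (SD, n = 4) with IL-6. The difference was 0.19 ± 0.03 (SE), or 14.02%. Its SE was 0.053 when only miRNAs detected on every array were fitted, and 0.055 with the floor halved. Of the 181 tested miRNAs, 9 (4.97%) passed as higher and 8 (4.42%) as lower in limma at a Benjamini-Hochberg adjusted p under 0.05 (17 in either direction, 9.39%), and 21 (11.6%) had all IL-6 arrays above all controls. miR-152-3p is among the 9 and the 21 and was chosen for it, so nothing is read from its place there.

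The 15-base probe of miR-152-3p gave a difference of the same size. Its scaled signal was 85.4, 93.1 and 88.6 in control replicates 1, 2 and 3. With IL-6 it was 93.7, 99.9, 103 and 111 in replicates 1 to 4. These groups did not overlap either, but IL-6 replicate 1 and control replicate 2 were nearly level. The log2 difference was 0.19, with a within-group SD of 0.09 against 0.04 for the 16-base probe.

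For miR-148b-3p the difference lay within the spread between replicates. On its 20-base probe the scaled signal was 83.5 in control replicate 1, 85.8 in control replicate 2 and 94.8 in control replicate 3. With IL-6 it was 80.3 in replicate 1, 85.7 in replicate 2, 87.1 in replicate 3 and 90.5 in replicate 4. The groups overlapped, with control replicate 3 highest and IL-6 replicate 1 lowest. The log2 mean was 6.46 ± 0.10 (SD, n = 3) in control and 6.42 ± 0.07 (SD, n = 4) with IL-6, a difference of -0.03 ± 0.06 (SE). On the 19-base probe the scaled signal was 57.9 to 66.7 in the controls and 58.6 to 65.4 with IL-6, a log2 difference of 0.03. Its 2 probes thus differed in sign, and both differences were smaller than their within-group SDs of 0.08 and 0.09.

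**Figure D1:**
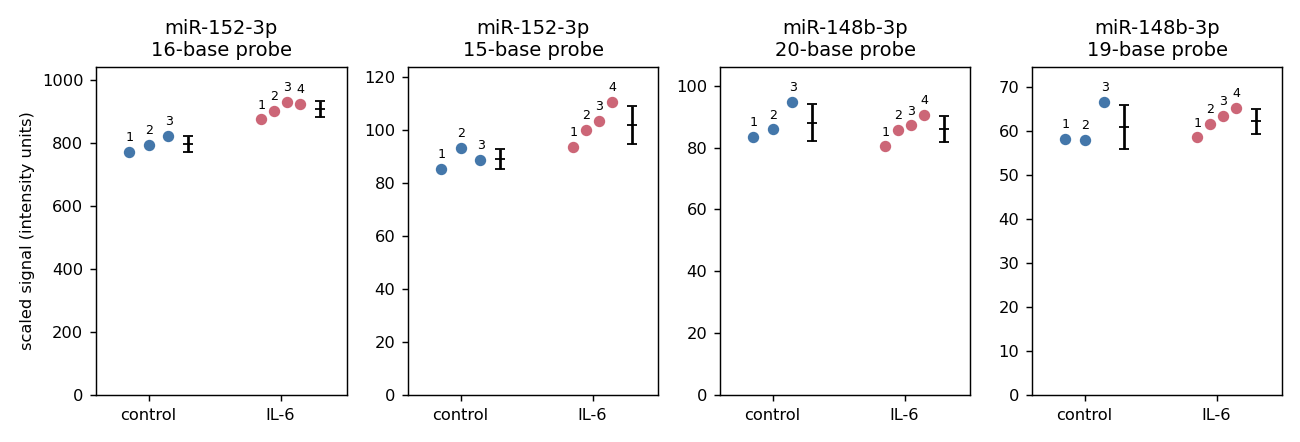
Scaled signal in intensity units on each array for the 4 probes, on axes that start at 0; numbers beside the points are replicate numbers, and the black bar gives the mean and SD of a group. Both miR-152-3p probes had all 4 IL-6 arrays above the 3 controls, while the groups overlapped for both miR-148b-3p probes.

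Before scaling, the groups overlapped for both miRNAs. The unscaled signal of the 16-base miR-152-3p probe was 659 to 824 in the controls and 773 to 1128 with IL-6. That of the 20-base miR-148b-3p probe was 71.2 to 94.9 in the controls and 70.9 to 107 with IL-6. IL-6 replicate 2 was the brightest array for both. Across the 7 arrays the highest signal of miR-152-3p was 1.71 times the lowest before scaling and 1.21 times after it. For miR-148b-3p these ratios were 1.51 and 1.18.

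The ratio of the 2 miRNAs within an array does not depend on a scaling factor. Because levels of different probes cannot be set against each other, the log2 ratio of miR-152-3p to miR-148b-3p was centred on its mean over the arrays. With the brighter probe of each, it was -0.10 in control replicate 1, -0.10 in control replicate 2 and -0.19 in control replicate 3. With IL-6 it was 0.14 in replicate 1, 0.09 in replicate 2, 0.11 in replicate 3 and 0.05 in replicate 4. Every control lay below every IL-6 array, and the group means differed by 0.22, with SDs of 0.05 and 0.04. The pair was chosen for the rise of miR-152-3p, so this ratio describes the arrays and nothing is read from it. Over the 4 pairs of probes the difference was 0.16 to 0.23. The groups did not overlap in 3 of the 4; in the pair of the 15-base and 19-base probes, control replicate 2 (0.0441) lay above IL-6 replicate 1 (0.0379).

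**Figure D2:**
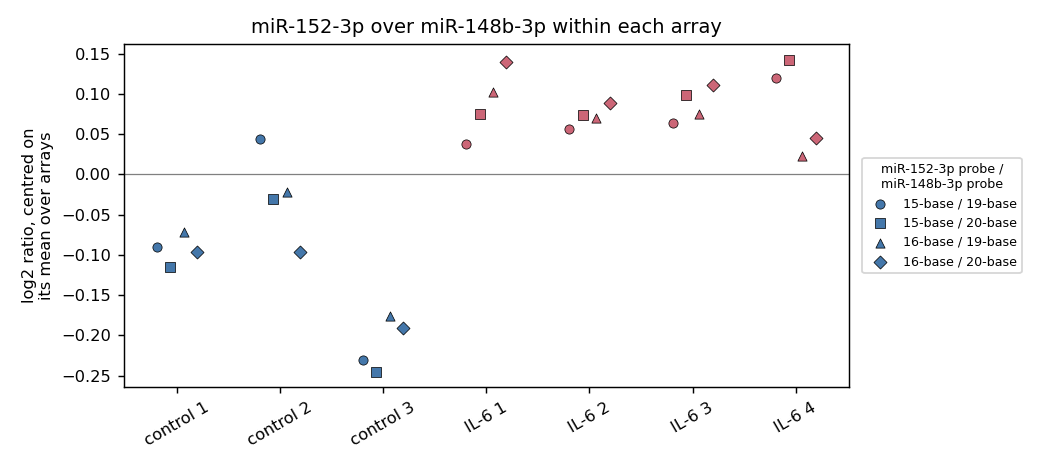
Log2 ratio of miR-152-3p to miR-148b-3p on each array, centred on its mean over the 7 arrays, for the 4 pairs of probes (symbols); blue points are controls and red points IL-6. For the 16-base and 20-base probes (diamonds) the controls run from -0.19 to -0.10 and the IL-6 arrays from 0.05 to 0.14.

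Slide position was recorded in the files, and 3 slide column numbers held 1 array of each group. Whether arrays with the same column number lay on 1 slide was not checked. Within columns 1, 3 and 4, IL-6 minus control was 0.18, 0.23 and 0.17 for miR-152-3p on the log2 scale. For miR-148b-3p it was -0.06, 0.02 and -0.07. With slide column as a block the fitted differences were 0.19 ± 0.02 and -0.03 ± 0.03 (SE). IL-6 replicate 2 had no control in its column, so these fitted differences restate those of the 3 columns and are no separate check.

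The size of both differences depended on how arrays were scaled. Without scaling, the log2 difference was 0.37 ± 0.14 (SE) for miR-152-3p and 0.14 ± 0.16 for miR-148b-3p. With spike-in scaling it was 0.37 ± 0.11 and 0.15 ± 0.13. In these settings the median difference of all tested miRNAs moved from 0.02 to 0.17 and 0.18. Relative to that median, miR-152-3p stood at 0.17 as reported, at 0.19 without scaling and at 0.19 with spike-in scaling, and miR-148b-3p at -0.05, -0.03 and -0.03. Other settings lowered the value of miR-152-3p relative to the median, to 0.12 with quantile normalization and to 0.10 with normexp background, where miR-148b-3p stood at -0.04 and -0.03. With the 75th percentile taken over all probes the log2 differences themselves were 0.05 ± 0.29 and -0.18 ± 0.29, and the median was -0.12. These SEs exceeded both differences.

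**Figure D3:**
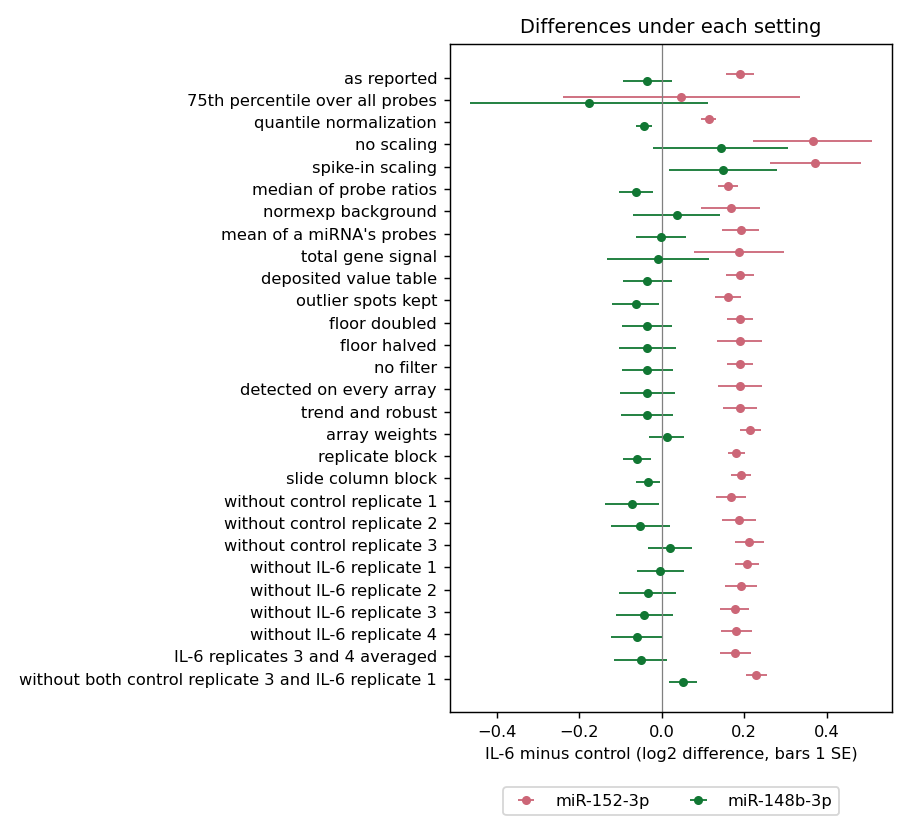
IL-6 minus control as a log2 difference for miR-152-3p (red) and miR-148b-3p (green) as reported and under 27 other settings, with bars of 1 SE. The miR-152-3p value lies above 0 in all of them, from 0.05 to 0.37, and that of miR-148b-3p lies between -0.18 and 0.15. Settings of the floor, the filter and the trend and robust variance change only the bars.

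On its brighter probe, replicates of a group varied less for miR-152-3p than for most miRNAs. The within-group SD of that probe was 0.04 on the log2 scale. The median of the 157 miRNAs detected and above the floor on every array was 0.10. Of these, 94.9% had an SD larger than that of miR-152-3p. On the other probe of miR-152-3p the SD was 0.09, near that median. The miRNA was chosen for its rise in these same arrays, so nothing is read from its place. For the brighter probe of miR-148b-3p the SD was 0.08, and 57.3% of the 157 had a larger one. The median standard error that spot noise alone gave an array was 0.03 for the 16-base miR-152-3p probe and 0.04 for the 20-base miR-148b-3p probe.

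Within the groups the 2 miRNAs deviated together. Control replicate 3 was above its group mean by 0.05 for miR-152-3p and 0.11 for miR-148b-3p, and IL-6 replicate 1 stood at -0.05 and -0.10 from its group mean. Over the 7 arrays the deviations of the pair had a Pearson r of 0.93. The median over 156 candidates, the partner included, was 0.46 for miR-152-3p and 0.50 for miR-148b-3p. Other miRNAs deviated more alike: the partner ranked 11 of 156 for miR-152-3p and 16 of 156 for miR-148b-3p. The points share arrays and scaling, and the deviations add to 0 in each group. With the group difference left in, the levels of the pair had an r of 0.10.

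The miRNAs most like each member were taken as the 3 with the highest r over the 7 arrays, as a description. By level, miR-152-3p was most like miR-196b-5p (r = 0.95), miR-376a-3p (0.95) and miR-411-3p (0.94). All of these had positive differences, of 0.17 ± 0.03, 0.46 ± 0.10 and 0.29 ± 0.08 (log2, SE). Likeness to a level that differs between the groups favours that sign, so nothing is read from it. By level, miR-148b-3p was most like miR-199a-3p (r = 0.96), miR-31a-3p (0.93) and miR-301a-3p (0.93). Their differences were -0.04 ± 0.08, -0.03 ± 0.08 and -0.09 ± 0.06. By deviation from the group mean, the nearest to miR-152-3p were miR-34b-5p (r = 0.98), miR-27a-3p (0.97) and miR-30b-5p (0.96). The nearest to miR-148b-3p in that measure were miR-101b-3p (0.99), miR-26a-5p (0.99) and miR-337-3p (0.99).

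Other miRNAs reported, mostly in human cells, to repress DNA methyltransferases were read in the same fit. Of the 12 on this list, of which miR-143-3p and miR-145-5p are also fibroblast and smooth muscle markers, 10 were tested, 7 had a positive difference, 1 rose and 0 fell. Over all 181 tested, 104 were counted as positive, 4.97% rose and 4.42% fell, so 1 of 10 is close to the share called over all. The 104 include a few miRNAs at the floor on every array, with no difference beyond rounding error. The median log2 difference of the list was 0.14, against 0.02 for all tested. The one that rose was miR-185-5p, reported to repress DNMT1, with log2 levels of 6.35 to 6.43 in the controls and 6.52 to 6.63 with IL-6. Its difference was 0.17 ± 0.03 (limma, Benjamini-Hochberg adjusted p = 0.0400). The call was lost in 19 of the 27 other settings (limma adjusted p from 0.0112 to 1 over all 27). Among them, it was lost without control replicate 1 (0.106), 2 (0.0994) or 3 (0.0647) and without IL-6 replicate 1 (0.0719), 3 (0.0992) or 4 (0.0709), as limma adjusted p.

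miR-29a-3p, whose family represses in human cells the de novo methyltransferases Dnmt3a and Dnmt3b, had a difference of 0.15 ± 0.06 and did not pass (limma, adjusted p = 0.149). Of the same family, miR-29b-3p had 0.35 ± 0.11 (limma, adjusted p = 0.107) and miR-29c-3p had 0.16 ± 0.09 (limma, adjusted p = 0.364). miR-143-3p, reported to repress DNMT3A, had -0.13 ± 0.08 (limma, adjusted p = 0.420). miR-126a-3p and miR-377-3p of this list were detected on no array.

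A further 6 miRNAs are reported to act on Ezh2, which methylates histone H3, or on the Tet enzymes, which oxidise methylated DNA. All 6 were tested, and 5 had a positive difference, against 104 counted as positive of all 181 tested. In limma at an adjusted p under 0.05, 0 of the 6 rose or fell, where 9.39% of all tested did so in either direction. The median log2 difference of the 6 was 0.06, against 0.02 for all tested. miR-26a-5p, which represses Ezh2 in mouse myoblasts, had 0.10 ± 0.04 (limma, adjusted p = 0.200). miR-22-3p, which represses Tet2 in human and mouse cells, had -0.10 ± 0.04 (limma, adjusted p = 0.154), and miR-214-3p, which represses Ezh2 in mouse muscle cells, had 0.03 ± 0.04 (limma, adjusted p = 0.755).

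**Figure D4:**
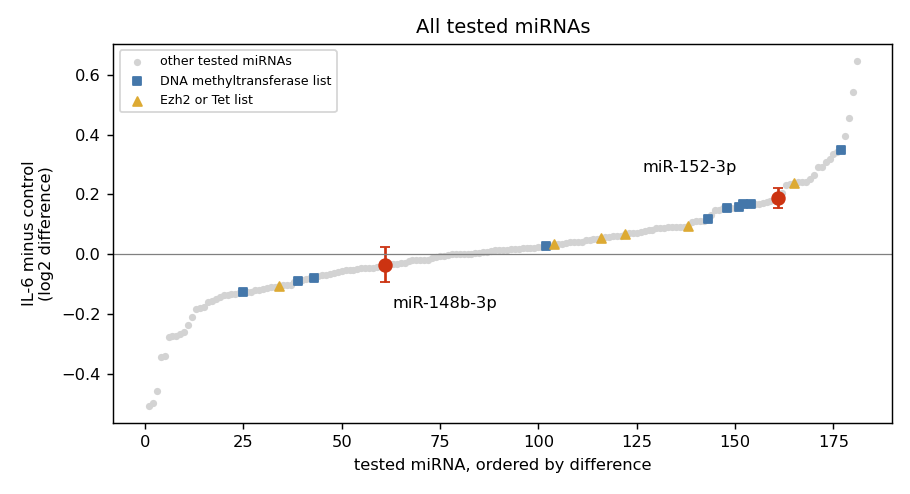
IL-6 minus control as a log2 difference for the 181 tested miRNAs, ordered from lowest to highest, with miR-152-3p (0.19) and miR-148b-3p (-0.03) in red with bars of 1 SE. Blue squares are the 10 tested miRNAs of the DNA methyltransferase list and yellow triangles the 6 of the Ezh2 or Tet list; both lists lie on either side of 0.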

How the data were processed

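Total RNA of each sample was labelled with Cy3 and hybridised to a 1-colour Agilent rat miRNA array. The deposited scanner files hold spot intensities from Agilent Feature Extraction 10.10.1.1, per the submitters' processing notes and the file headers. The processed signal is linear and background-subtracted and carries no adjustment from array to array. The value table that the authors deposited held the same numbers as the scanner files' total probe signal.

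Control spots and outlier spots (2.88% to 3.84%) were left out, and none was saturated. Per probe, the mean over spots was taken and scaled by the 75th percentile of 268 probes that every array measured well above background. Values under 15.7 units were set to that floor before log2. A miRNA took its brightest probe. For 181 miRNAs, detected throughout at least 1 group, the groups were compared in R 4.3.3 with limma 3.58.1 (lmFit, eBayes, Benjamini-Hochberg, threshold 0.05). The fit was checked on simulated data with independent noise and planted differences larger than those named here. That check does not cover smaller differences or miRNAs that vary together. The median SE was 0.07, and the number of arrays limits the precision. Named miRNAs were, per list, those past the threshold and then the highest in level up to 3, and per member the 3 of highest r. The rest of the miR-29 family was given beside miR-29a-3p. The alternatives were other scalings, background, probe summaries, floors, filters, variance models, blocks and left-out arrays. Members, lists and tests were chosen with earlier results of these data known.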

Additional observations from a re-analysis of the deposited data

Results flagged for a closer look

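In 9 quantities, the gap between the outermost IL-6 array and its neighbour was divided by the range over the 4 arrays and compared with Dixon's 95% critical value. Chance passes it in about 1 in 20 groups, and 1 quantity did. This was the log2 level of miR-214-3p, where IL-6 replicate 2 stood at 10.73 and the remaining IL-6 arrays between 10.85 and 10.87, a ratio of 0.848. Neither miR-152-3p (0.465, IL-6 replicate 1), nor miR-148b-3p (0.539, IL-6 replicate 1), nor their ratio (0.455, IL-6 replicate 4) passed.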

How the results depend on the processing

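Under 27 alternatives the log2 difference of miR-152-3p stayed positive, and that of miR-148b-3p was positive in 6 and negative in 21. Without 1 array at a time, they were 0.168 to 0.213 and -0.0717 to 0.0198, and the difference between them 0.193 to 0.241. The 27 are not separate checks. The floors, the filters and the trend and robust variance model left both differences as reported and changed only their SEs. Slide column as a block repeated the differences without IL-6 replicate 2, and the replicate block those without IL-6 replicate 4. The values beyond the replicate SD were, for miR-152-3p and miR-148b-3p, 0.048 and -0.18 with the percentile over all probes, 0.37 and 0.14 without scaling, and 0.37 and 0.15 with spike-in scaling. For miR-152-3p quantile normalization gave 0.11. For miR-148b-3p, leaving out both control replicate 3 and IL-6 replicate 1, chosen after seeing the data, gave 0.052. The difference between the miRNAs was 0.16 with quantile normalization and 0.13 with normexp background.

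The counts of all miRNAs passing limma, 9 higher and 8 lower, were less stable. Both were 0 with the percentile over all probes (2 at unadjusted p under 0.05 in either direction), without scaling (29), with normexp background (7), without a filter (41), with slide column as a block (52) and without control replicate 1 (35). They were 0 higher and 2 lower without control replicate 2 (34 at unadjusted p under 0.05), 1 and 4 without IL-6 replicate 3, and 1 and 5 without IL-6 replicate 4. Leaving out 1 array gave 0 to 10 higher and 0 to 7 lower. Spike-in scaling gave 4 and 0 (44 at unadjusted p under 0.05), total gene signal 3 and 2, and array weights 29 and 18. A doubled floor gave 5 lower, and the median of probe ratios 11 higher and 14 lower. Averaging IL-6 replicates 3 and 4 gave 1 and 5, and leaving out both control replicate 3 and IL-6 replicate 1 gave 20 higher; both were chosen after seeing the data. The split of higher to lower was 7 to 10 with quantile normalization and 6 to 12 with outlier spots kept. The cause of these changes was not tested.

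The labels give same-numbered samples nothing in common but the number, although both arrays of replicate 1 lie in slide column 1. Their deviations correlated at 0.557, -0.125 and 0.384 for replicates 1, 2 and 3, so the numbers were not taken as pairs. With the replicate block the differences were 0.18 for miR-152-3p and -0.06 for miR-148b-3p, and 0 miRNAs passed as higher and 3 as lower (45 at unadjusted p under 0.05). IL-6 replicate 4 had no control of its number in that block and did not bear on either difference. Among replicates 1 to 3 of each group, 1 and 3, but not 2, correlated best with their own number. IL-6 replicate 4 was not part of that comparison.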
